A study of Rattus norvegicus with 10 samples.

Results

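The sensors of foreign RNA and DNA examined here were 10 genes chosen by name, namely Tlr3, Tlr7, Tlr9, Ddx58, Ifih1, Dhx58, Eif2ak2, Zbp1, Mavs and Aim2, out of 32623 rat genes in the deposited table. Each name stood beside 1 Ensembl identifier. Their transcripts were counted by RNA sequencing of supraoptic nuclei, a hypothalamic group of vasopressin and oxytocin neurons, from male Sprague Dawley rats, an outbred strain. Each rat had received an adeno-associated virus (AAV) with a hairpin RNA against Opn3 (shOpn3, n = 5) in the nucleus of one side and an AAV with a non-targeting hairpin (shControl, n = 5) in the other. Nuclei were punched out 2 weeks later and extracted singly, and replicate numbers 1 to 5 are shared between the groups. Both groups thus carried a virus and a hairpin, and nuclei without either were not analysed here. Which side received which virus, the promoter of the hairpins and the cells that took up the virus are not given in the sources used here.

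Cells recognise the nucleic acids of viruses by receptors in 2 places. Toll-like receptors in endosomes meet RNA and DNA that has been swallowed, and helicases, kinases and other binding proteins meet RNA and DNA in the cytosol. Both routes lead to type I interferons and inflammatory cytokines, and interferon in turn raises the transcripts of many of the sensors themselves. In the brain, microglia carry much of this machinery, while neurons, astrocytes and endothelial cells carry parts of it.

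The libraries held 33158341 to 39958578 reads. Avp and Oxt, the peptide transcripts that define the nucleus, were present in all 10 samples but lower in shOpn3, with no overlap between the groups. Avp had 32813 to 102261 normalized counts in shControl and 4619 to 20888 in shOpn3. Oxt had 16742 to 56716 in shControl and 3810.4 to 9739 in shOpn3. The cause of this difference was not tested. A normalized count is the read count divided by the size factor of its sample, and size factors lay between 0.942 and 1.07. Opn3 had 719, 694, 841, 1007 and 261 normalized counts in shControl replicates 1 to 5 and 290, 193, 159, 154 and 145 in shOpn3, so the hairpin target was lower in shOpn3 in 5 of 5 pairs (log2 difference -1.82, limma adjusted p = 0.00226). shControl replicate 5 lay within the shOpn3 range. No label says that samples of a group came from separate litters or surgery days, so p-values measure the spread between these samples.

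Of the 10 sensors, 8 were higher in shOpn3 in the limma test on log2(normalized count + 1), at an adjusted p under 0.05 over 15597 genes, and 0 were lower, where 10.4% of all genes tested were called higher and 8.48% lower (18.8% in either direction). All 10 had passed the filter of a mean of 10 normalized counts. The 2 sensors not called were Eif2ak2, with a difference of 0.61 on the log2 scale, and Mavs, with -0.17. This test compared the groups without the pairing and took the 10 nuclei as independent. With a block on the replicate number, 9 sensors were called higher, Eif2ak2 among them, as were 15.1% of all genes. The 8 rises ranged from 0.97 for Tlr3 to 2.68 for Zbp1, and 7 of them were at least 1, a size that 3.81% of all genes reached with a call. The median difference of the 10 was 1.06, against -0.02 over all genes tested. For 6 sensors every shOpn3 sample lay above every shControl sample (8.03% of all genes tested), and 8 sensors were higher in 5 of 5 pairs (18.7% of all genes tested). In bulk tissue, more cells of a type and more RNA per cell cannot be told apart. Leaving out shOpn3 replicate 3 lowered the number called to 6, with Ddx58 and Aim2 lost, and 7.48% of all genes were then called higher. Without shOpn3 replicate 4, the highest sample, 8 were called (9.35% of all genes higher).

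**Figure D1:**
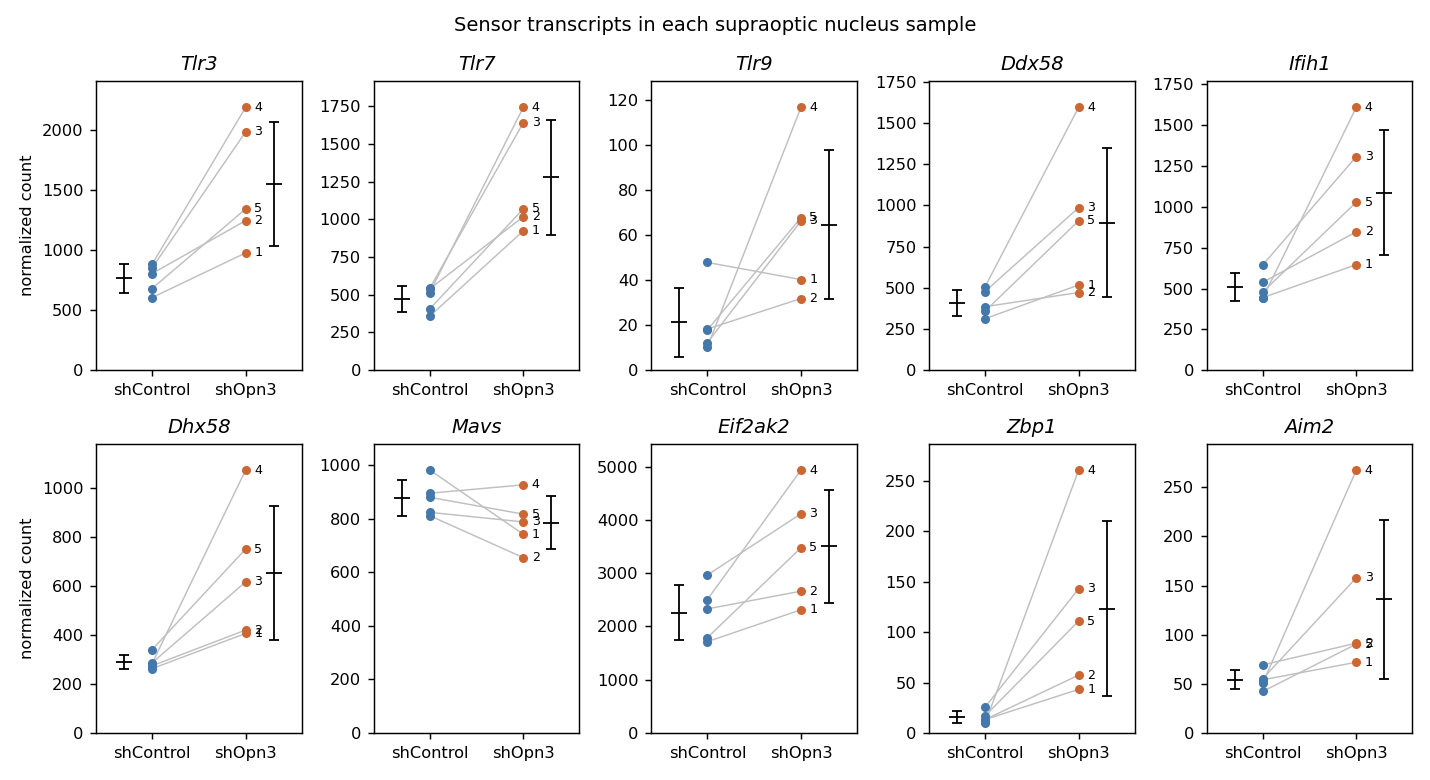
Normalized counts (vertical axes, linear, from 0) of the 10 sensors in the 5 shControl and 5 shOpn3 samples. Points are samples, grey lines join equal replicate numbers (printed beside the shOpn3 points), and the black bars give mean ± SD of each group. In every panel shOpn3 replicate 4 is the highest shOpn3 point, and only in the Mavs panel does the shOpn3 mean (786) lie below the shControl mean (879).

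The endosomal receptors all rose. Tlr3 (ENSRNOG00000021726), which binds double-stranded RNA, had 606, 806, 852, 883 and 682 normalized counts in shControl replicates 1 to 5 and 979, 1248, 1988, 2193 and 1345 in shOpn3. No sample of either group overlapped, although the highest shControl sample (883) came close to the lowest of shOpn3 (979). The means were 766 ± 118 and 1550.3 ± 516 (SD, n = 5 each), a log2 difference of 0.97 (SE 0.203, limma adjusted p = 0.00602).

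Tlr7 (ENSRNOG00000004249), a receptor for single-stranded RNA that microglia and plasmacytoid dendritic cells express, had 358, 539, 543, 515 and 406 normalized counts in shControl and 924, 1017, 1641, 1743 and 1069 in shOpn3. Its groups stood far apart, and it was between 1.89 and 3.38 times the same-numbered control in the 5 pairs. The log2 difference was 1.41 (SE 0.192, limma adjusted p = 0.000613), with the narrowest interval relative to its size among the rises (95% interval 0.99 to 1.82). It was called in every one of 26 alternative fits, from 1.24 to 1.51.

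Tlr9 (ENSRNOG00000048161), which recognises DNA with unmethylated CpG, had few reads, with 47.9, 18.3, 12.2, 10.3 and 17.9 normalized counts in shControl and 40.3, 31.9, 66.4, 117 and 67.8 in shOpn3. The groups overlapped because shControl replicate 1 exceeded shOpn3 replicates 1 and 2. The log2 difference was 1.62 (SE 0.420, limma adjusted p = 0.0180), and 1.96 without shControl replicate 1. The ratio in the pairs ran from 0.841 in pair 1 to 11.3 in pair 4, and Tlr9 was higher in 4 of 5 pairs. In RefSeq (assembly GRCr8, used for names and neighbours alone) Tlr9 overlaps Rpl29, a ribosomal protein gene with 2824 to 4421 normalized counts per sample. Use of strand in counting is not given in the sources used here, so reads of both may be mixed. Rpl29 itself did not pass the test (log2 difference -0.16, limma adjusted p = 0.403). Among the shControl samples Rpl29 was highest in replicate 1 (4421), as was Tlr9. It was nearly as high in replicate 5 (4296), where Tlr9 was at 17.9. Among the shOpn3 samples Rpl29 was highest in replicate 1 (3390.5), where Tlr9 was at 40.3, below replicates 3, 4 and 5. Mixing of reads was not tested. Tlr3, Ddx58 and Eif2ak2 overlap unnamed loci in that annotation.

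The RIG-I-like receptors are 3 related helicases that bind viral RNA in the cytosol. Ddx58 (ENSRNOG00000006384) encodes RIG-I, which binds short double-stranded RNA with a triphosphate end. It had 313, 386, 478, 507 and 359 normalized counts in shControl and 517, 472, 987, 1596 and 907 in shOpn3. Samples 3, 4 and 5 of shOpn3 stood well above all controls, while replicate 2 (472) lay below shControl replicates 3 and 4. The log2 difference of 1.01 (SE 0.289) passed the threshold narrowly (limma adjusted p = 0.0291). It did not pass when shControl replicate 1, 2 or 5 or shOpn3 replicate 3 or 5 was left out (adjusted p from 0.0548 to 0.0759).

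Ifih1 (ENSRNOG00000006227) encodes MDA5, which binds long double-stranded RNA. Its normalized counts were 444, 538, 645, 441 and 479 in shControl and 647, 848, 1308, 1610.2 and 1029 in shOpn3. The groups did not overlap, but shControl replicate 3 (645) and shOpn3 replicate 1 (647) were nearly equal. The log2 difference was 1.04 (SE 0.214, limma adjusted p = 0.00552).

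Dhx58 (ENSRNOG00000018247) encodes LGP2, which lacks the caspase recruitment domains of RIG-I and MDA5 and modulates their signalling. The control samples were tightly grouped at 262, 274, 286, 283 and 340 normalized counts, and the shOpn3 samples spread over 406, 420, 616, 1072 and 750.0. All shOpn3 samples were above all controls. Dhx58 rose by 1.08 in log2 units (limma SE 0.231, adjusted p = 0.00657), and the 95% intervals of the 3 helicases overlapped widely, from 0.38 to 1.64 for Ddx58 and from 0.58 to 1.58 for Dhx58.

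Mavs (ENSRNOG00000025295), the mitochondrial adaptor through which RIG-I and MDA5 signal, did not follow the receptors. It had 983, 812, 825, 896 and 881 normalized counts in shControl and 743, 655, 789, 927 and 818 in shOpn3. The groups overlapped, and shOpn3 was lower in 4 of 5 pairs. The log2 difference of -0.17 (95% interval -0.38 to 0.05, limma adjusted p = 0.276) did not pass the test in any of 26 alternative fits. Its whole interval lay below those of the 8 sensors that were called.

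Eif2ak2 (ENSRNOG00000048315) encodes PKR, the kinase that is switched on by double-stranded RNA and halts translation by phosphorylating the initiation factor eIF2. It had 1715, 2330.2, 2967, 2506 and 1790.3 normalized counts in shControl and 2314, 2664, 4118, 4939.8 and 3479 in shOpn3. It was higher in shOpn3 in 5 of 5 pairs, by 1.14 to 1.97 times, but the groups overlapped, since shControl replicate 3 exceeded shOpn3 replicates 1 and 2. The log2 difference was 0.61 (SE 0.209, 95% interval 0.15 to 1.06, limma adjusted p = 0.0625). Blocking on the replicate number, which brought 9 of the 10 sensors and 15.1% of all genes past the test as higher, gave Eif2ak2 a limma adjusted p of 0.00665. It also passed without shControl replicate 3 (0.71, adjusted p = 0.0388) and without shOpn3 replicate 1 (0.74, adjusted p = 0.0216). In the authors' deposited table Eif2ak2 had a log2 fold change of 0.63 and an adjusted p of 0.0208, and 9 of the 10 sensors were higher there at an adjusted p under 0.05 (11.4% of the genes with an adjusted p). On the recovered reads, edgeR called 8 sensors higher (10.4% of all genes) and DESeq2 9 (12.6%).

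Promoters were looked up because several sensors moved together and interferon is known to act on such genes through a short element, the interferon-stimulated response element (ISRE). RefSeq (GRCr8) gave a window of 250 bases before to 50 bases after the start for 7 of the 10 sensors, without Ddx58, Dhx58 and Zbp1. The ISRE core, searched on both strands as GAAA, any 2 bases and GAAA again, was found in the windows of Ifih1 and Eif2ak2 and not in those of Tlr3, Tlr7, Tlr9, Mavs and Aim2. Of all 33469 promoter windows of this length, 3.92% held a match. A second interferon-related motif, the GAS core TTCNNNGAA, was in none of the 7 windows and in 8.87% of all windows. The 120 bases before the start are shown for the 2 genes with a match, whose letters are in capitals, and for Tlr3 as a sensor that rose without one.
Ifih1 (chr3:67683969-67684088, minus strand, GRCr8, upstream of the gene): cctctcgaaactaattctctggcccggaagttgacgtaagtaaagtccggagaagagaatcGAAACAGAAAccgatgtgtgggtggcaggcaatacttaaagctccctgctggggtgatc
Eif2ak2 (chr6:21941034-21941153, plus strand, GRCr8, up to the gene's start): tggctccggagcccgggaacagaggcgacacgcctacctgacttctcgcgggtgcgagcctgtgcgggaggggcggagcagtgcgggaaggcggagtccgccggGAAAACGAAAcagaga
Tlr3 (chr16:53554796-53554915, plus strand, GRCr8, upstream of the gene): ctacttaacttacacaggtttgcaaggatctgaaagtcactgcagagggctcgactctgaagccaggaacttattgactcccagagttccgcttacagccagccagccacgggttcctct
The match began 59 bases before the start in Ifih1 and 16 bases before it in Eif2ak2. Ifih1 passed the limma test of the groups. Eif2ak2 did not pass it, but passed in some alternative fits, the replicate block among them. Tlr3 and Tlr7 were called higher and had no match in their windows. Whether the matches bear on the differences was not tested. A match is a string of letters and no measured binding.

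Zbp1 (ENSRNOG00000006314) encodes a protein that binds nucleic acids in the left-handed Z form and can set off necroptosis through the kinase Ripk3. It had the largest difference of the 10. Its counts were 13.3, 13.2, 25.5, 9.36 and 16.9 in shControl, from 10 reads upwards, and 43.2, 57.4, 143, 261 and 111 in shOpn3. Even the lowest shOpn3 sample was above the highest control, and the pairs differed by 3.26, 4.34, 5.60, 27.9 and 6.57 times. The means of 15.6 ± 6.12 and 123 ± 86.9 (SD, n = 5 each) gave a log2 difference of 2.68 (SE 0.436, limma adjusted p = 0.00146). The scale of log2(normalized count + 1) understates changes of low genes, and with a pseudocount of 0.5 the difference of Zbp1 was 2.72. The alternatives ran from 2.34 to 2.98 and all were called, and the authors' deposited table gave 2.98 for Zbp1.

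Aim2 (ENSRNOG00000003480) binds double-stranded DNA in the cytosol and assembles an inflammasome with Pycard and Casp1. It had 54.0, 69.2, 55.1, 50.6 and 42.2 normalized counts in shControl and 72.0, 91.3, 158, 268 and 90.4 in shOpn3. The groups did not overlap, although shControl replicate 2 (69.2) and shOpn3 replicate 1 (72.0) nearly met. The log2 difference was 1.15 (SE 0.312, limma adjusted p = 0.0219), and without shOpn3 replicate 3 it was 1.06 and no longer called (adjusted p = 0.0628).

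The sensors were also tested one by one. The exact two-sided permutation p was 0.00794, the smallest that 5 against 5 samples allow, for Tlr3, Tlr7, Ifih1, Dhx58, Zbp1 and Aim2. It was 0.0238 for Tlr9 and for Ddx58, 0.0556 for Eif2ak2 and 0.135 for Mavs. That test takes the 10 nuclei as independent. Over the 5 pairs, an exact two-sided sign-flip test cannot go below p = 0.0625, so it cannot pass 0.05. It gave 0.0625 for the 8 sensors that were higher in every pair, Eif2ak2 among them, and 0.125 for Tlr9 and Mavs.

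The sensors rose to very different degrees in the 5 shOpn3 nuclei, and mostly in the same order. Replicate 4 was the highest shOpn3 sample for all 10 sensors, Mavs included. Replicate 1 was the lowest for 7 and replicate 2 for the other 3. Replicate 3 was among the highest 2 for 7 of the 10. The mean log2 value of the 10 sensors was 9.83 in replicate 4, 9.34 in 3, 9.07 in 5, 8.58 in 2 and 8.46 in 1, whereas the 5 shControl samples lay between 7.83 and 8.07. The spread was wider under the Opn3 hairpin than under the control hairpin for most sensors, with an SD of 275 against 29.9 normalized counts for Dhx58 and of 80.6 against 9.78 for Aim2. The means were also higher in shOpn3, at 653 against 289 for Dhx58 and 136 against 54.2 for Aim2. For Tlr9 the SD was smaller relative to the mean in shOpn3 (33.2 around 64.6) than in shControl (15.3 around 21.3). The total reads of shOpn3 replicate 4 (35373481) lay within the range of the other libraries. Of the marker sums given below, that of neurons was lowest in this replicate (151583, next 153881 in shControl replicate 5). Those of astrocytes and endothelium were highest in it (539158 and 33424), while that of oligodendrocytes (476478) lay within the range of the others. The part of this in the sensor values was not tested.

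Correlations between the sensors' log2 values are given as descriptions, over samples that share libraries and size factors. With each group's mean removed, over 10 samples, the 45 pairs of sensors had Pearson r between 0.11 and 0.97, with a median of 0.77. The closest pair was Tlr3 with Tlr7 (r = 0.97), followed by Ifih1 with Zbp1 (r = 0.96). Tlr9 and Mavs had the lowest median r with the other 9 (0.41 and 0.54) and correlated with each other (r = 0.81), although Mavs reached 0.75 with Dhx58. Among the other 8 sensors r ran from 0.60 to 0.97. These values mostly describe the shOpn3 samples, whose spread was wider for most sensors. Over the 5 shOpn3 samples alone, the 45 values of r ran from 0.68 to 0.995 with a median of 0.93, Tlr9 and Mavs included. Over the 5 shControl samples alone they ran from -0.92 to 0.96 with a median of 0.02, and Tlr9 had r = -0.92 with Ddx58 there against 0.99 in shOpn3.

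**Figure D2:**
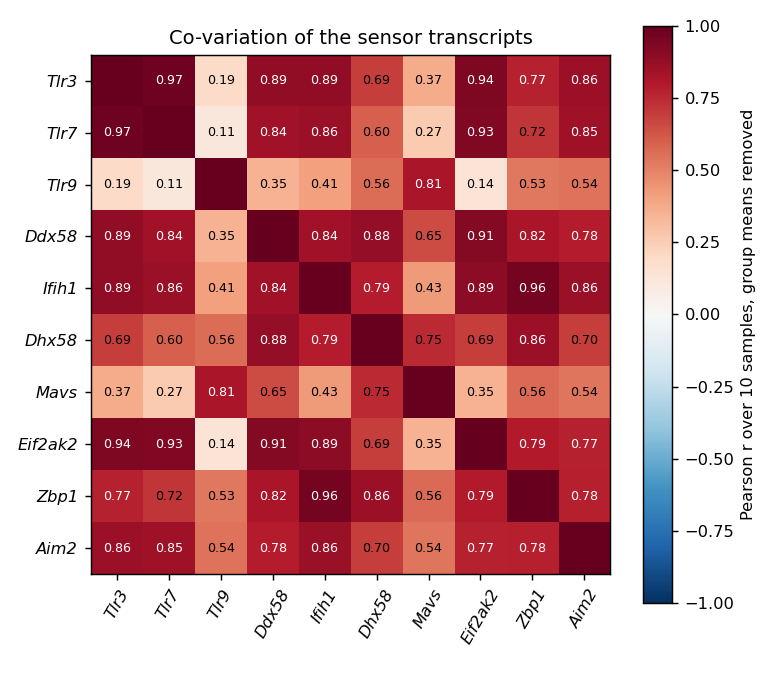
Pearson r between the log2 values of each pair of sensors over 10 samples after removal of the group means. Colour and printed values give r on a scale from -1 to 1, and the diagonal is 1. The rows of Tlr9 and Mavs are paler than the others, down to 0.11 for Tlr9 with Tlr7.

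The genes most like each sensor by the same measure were sought among 13767 genes with a symbol. As the highest of so many values over 10 samples, these r are high by selection, and they were not tested. Some of the genes passed the limma test between the groups and others did not. For Ddx58 they were Ifi44, Parp9 and Oas1f (r = 0.97 each), for Dhx58 Hsh2d, Irf9 and Uba7 (r = 0.98, 0.97 and 0.96), and for Eif2ak2 Samd9, Dtx3l and Trim21 (r = 0.98, 0.98 and 0.97). For Tlr7 they were Clec4a3 and Otulinl (r = 0.99 and 0.98), for Tlr3 St3gal6, Oma1 and Folh1 (r = 0.99, 0.99 and 0.98), and for Zbp1 Spint1, Ifih1 and Igtp (r = 0.96, 0.96 and 0.94). Ifih1 was followed most closely by Lims1, Cflar and Olr1 (r = 0.97, 0.97 and 0.96). Those of Tlr9 were Shmt2, Arhgap27 and Snx20 (r = 0.97, 0.96 and 0.95), those of Mavs Osr1 and Gpr182 (r = 0.97 and 0.96), and those of Aim2 Edn3, Sec61a1 and Capn6 (r = 0.96, 0.95 and 0.95).

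Microglial transcripts differed between the groups in the same direction. Of 14 microglia markers 13 were called higher, with a median log2 difference of 1.08. Their summed level was 18416 to 22155 normalized counts in shControl and 30133 to 58471 in shOpn3, again highest in replicate 4 (58471) and next in replicate 3 (47890.3), and 0 of them was at 0 reads. Each sensor was therefore also expressed relative to the mean log2 value of these markers in the same sample, which itself was 1.11 higher in shOpn3 (exact two-sided permutation p = 0.00794). On this scale, where 1.05% of all genes were called higher and 89.8% lower, Zbp1 was the 1 sensor called higher, by 1.57 (SE 0.323, limma adjusted p = 6.42e-05), in 5 of 5 pairs. The groups of Zbp1 overlapped on this scale, and its exact two-sided permutation p was 0.0159. Relative to these markers Tlr3, Tlr7, Tlr9, Ddx58, Ifih1, Dhx58 and Aim2 had differences from -0.15 to 0.51, and none of the 7 passed the test. Their 95% intervals reached from -0.60 for Tlr3 at the low end to 1.16 for Tlr9 at the high end, and each of the 7 included 0. Without shControl replicate 1 the value of Tlr9 was 0.80 and called (limma adjusted p = 0.0166). Mavs (-1.28, limma adjusted p = 4.57e-06) and Eif2ak2 (-0.51, limma adjusted p = 0.0434) were called lower, as were most genes. Their exact two-sided permutation p was 0.00794 for Mavs and 0.119 for Eif2ak2. Blocking on the replicate number removed this call of Eif2ak2 (limma adjusted p = 0.0843), as did leaving out any of 6 samples. The part of microglial cell number in the rise of the sensors was not tested.

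**Figure D3:**
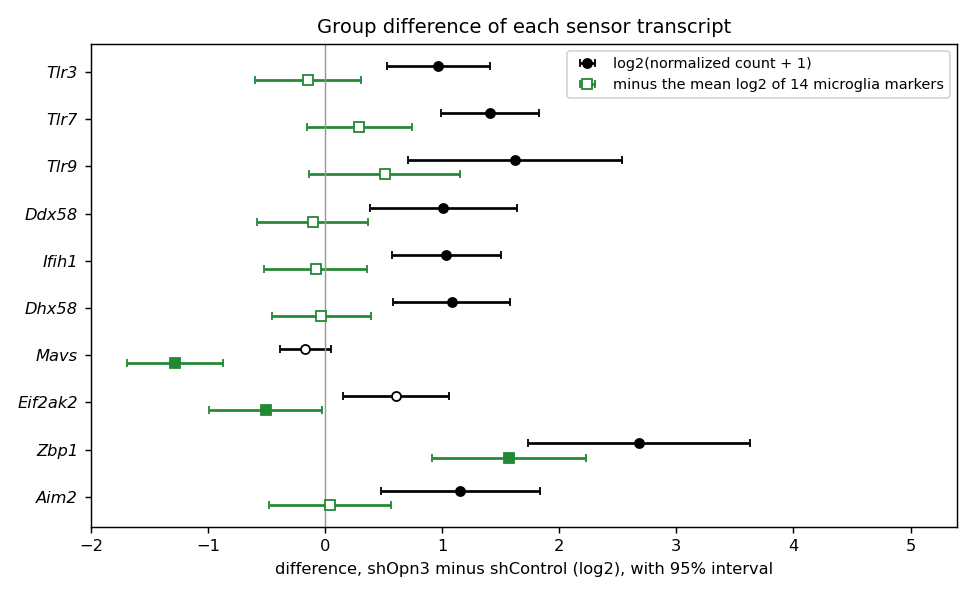
Difference between shOpn3 and shControl (log2, horizontal axis) of each sensor with its 95% interval. Black circles are log2(normalized count + 1), green squares the same after subtraction of the mean of 14 microglia markers, and filled symbols have an adjusted p under 0.05. Zbp1 lies right of 0 on both scales (2.68 and 1.57), while the squares of 7 sensors straddle 0.

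Markers of other cell types moved as follows, and their part in the sensor values was not tested. Of 10 T and NK cell markers tested 7 were called higher, with sums of 673 to 893 normalized counts in shControl and 1625 to 4612 in shOpn3. Most of that sum was Cd4 (649 ± 59.2 and 2712 ± 1165, SD, n = 5 each), which rat macrophages also express, and Gzmb had 0 reads in all samples. Of 7 tested markers of perivascular macrophages and monocytes 3 were higher (sums of 2028 to 2921 and 2798 to 6365), and of 7 neutrophil markers 2 were higher (341 to 705 and 576 to 1339.8), with Elane at 0 reads. The neutrophil markers called were Lcn2 and Csf3r, with mean counts of 37.7 and 193 in shControl and 164 and 527 in shOpn3. S100a8, S100a9, Camp, Mmp8 and Cxcr2 were not called, with log2 differences of -0.61, -0.25, -0.06, 0.42 and 0.17. Of 6 markers of B cells and plasmacytoid dendritic cells 0 were called, with sums of 1215 to 1897 and 1660.01 to 2671, and Siglech, a defining marker of the latter, was too low to be tested. Of 12 astrocyte markers 4 were higher and 1 lower (348360 to 456822 and 394074 to 539158), and of 12 oligodendrocyte markers 11 were lower (789036 to 1332930 and 274060 to 509991). Of 12 neuronal markers 1 was higher and 2 were lower (153881 to 223547 and 151583 to 268784), and of 9 endothelial markers 0 were called (26379 to 29069 and 22925 to 33424).

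The other genes of the pathways were read from 7 lists. Of 113 such genes tested, 54 were called higher and 2 lower. Over all genes tested 10.4% were called higher and 8.48% lower, and the counts of each list below stand beside the same shares. The lists were chosen with earlier results of these data known. Genes of families with similar sequences, such as Oas and Ifit genes, are uncertain where reads could be shared.

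Of 18 tested genes of other innate sensors and effectors, 12 were higher and 0 lower, with a median log2 difference of 0.97. Not all of them are receptors for nucleic acid: Nod2, a sensor of bacterial cell wall fragments, and the inflammasome sensors Nlrp3 and Nlrp1a are among the 12, with rises of 0.91, 1.20 and 1.04. The largest rises were those of Ifit3, which binds viral RNA together with its relatives (means of 155 ± 74.6 and 1467 ± 1009.9, SD over 5 samples each; 3.02 in log2 units, limma adjusted p = 0.00125), and of Oas2, Oasl and Oasl2 (1.53, 1.52 and 1.47), members of the family of oligoadenylate synthetases. Cgas, the cytosolic DNA sensor, rose by 1.39 (limma adjusted p = 0.0260) from 16.2 to 47.0 normalized counts. Among the helicases of this list Dhx33 rose by 0.40 (limma adjusted p = 0.00403), with no overlap between the groups. Dhx9, Dhx36 and Ddx41 did not pass the test, with differences of 0.09, -0.00 and 0.04.

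Genes that serve the endosomal receptors were called higher in 9 of 16 cases and lower in 1. Unc93b1, the chaperone that carries Tlr3, Tlr7 and Tlr9 to endosomes, had means of 283 ± 65.9 and 627 ± 181 (SD over 5 samples each) and rose by 1.13 in log2 units (limma adjusted p = 0.00304). Slc15a3, a transporter of the endolysosome, Rnaset2, an RNase that cuts RNA into the pieces TLR8 senses, and Ctss, a protease that trims these receptors, rose by 1.12, 1.06 and 0.81. Myd88, the adaptor of Tlr7 and Tlr9, rose by 0.65 (limma adjusted p = 0.00552), while Traf6 had a difference of -0.01. The gene called lower was Hsp90b1, a chaperone of Toll-like receptors and of many secreted proteins (-0.43, limma adjusted p = 0.0338).

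Of 22 genes of cytosolic signalling, 9 were higher and 0 lower. Sting1, the adaptor of Cgas, had means of 131 ± 37.2 and 257 ± 61.8 (SD over 5 samples each) and rose by 0.97 (limma adjusted p = 0.00614). The partners of Aim2 rose, Pycard by 1.14 and Casp1 by 0.87, as did Ripk3, the partner of Zbp1, by 1.13 and Mlkl, the executor of necroptosis, by 0.86. The shared signalling kinase Tbk1 had a difference of 0.05 (95% interval -0.18 to 0.28, limma adjusted p = 0.772), and Traf3 one of -0.03.

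Of 12 transcription factors downstream, 10 were higher and 0 lower, led by Irf7 (means of 270.2 ± 35.7 and 1428.5 ± 897, SD over 5 samples each; 2.18 in log2 units, limma adjusted p = 0.00139), Irf8 (1.73), Irf5 (1.13) and Relb (0.91). Irf3, which pre-exists in most cells and is switched on by phosphorylation, had a difference of -0.07 (95% interval -0.37 to 0.23, limma adjusted p = 0.771), and Rela one of -0.10.

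**Figure D4:**
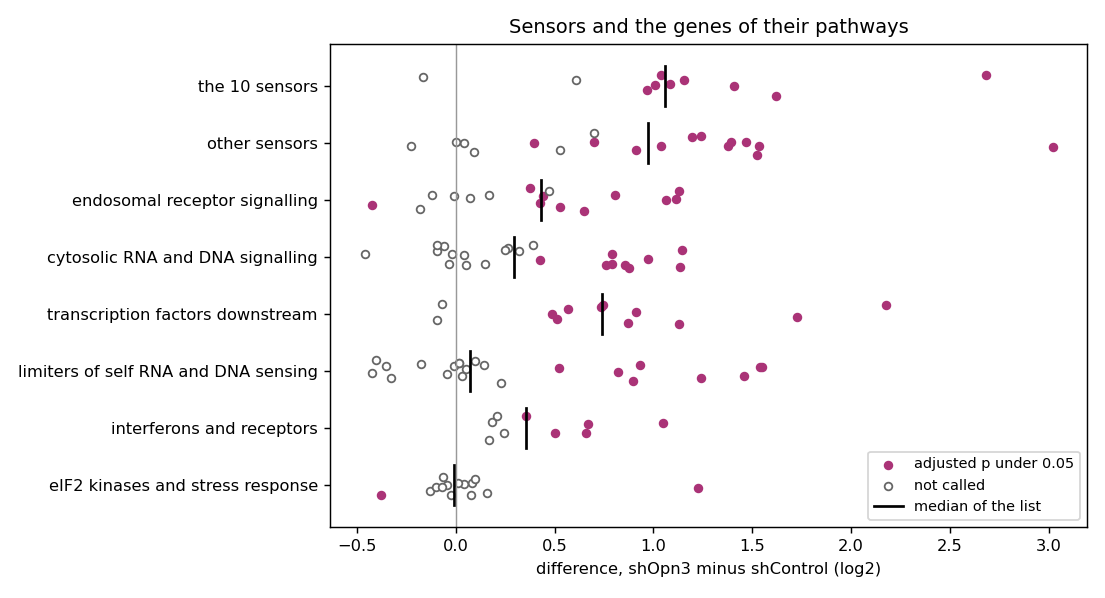
Difference between shOpn3 and shControl (log2, horizontal axis) of every tested gene in the sensor list and in 7 lists of the pathways. Filled points have an adjusted p under 0.05, open points do not, and black ticks are list medians. The medians run from 1.06 for the 10 sensors to -0.01 for the eIF2 kinases and the stress response.

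Interferon ligands were close to absent in the reads. The 12 ligand genes in the table, among them Ifnb1, Ifng and 6 Ifna genes, had at most 2 reads in any sample, and 3 of them had 0 reads throughout. Summed over the 12, a sample had 1 to 4 reads, with 10 reads in the shControl group and 17 in the shOpn3 group, so no difference was detectable at this depth. Of the 9 receptor and kinase genes tested, 5 were higher and 0 lower. Ifnlr1, a chain of the interferon lambda receptor, rose by 1.05, Ifngr2 and Ifngr1 by 0.67 and 0.66, and Il10rb by 0.50, whose call was lost without shOpn3 replicate 3 (adjusted p = 0.0512). The type I receptor chains Ifnar1 and Ifnar2 had differences of 0.19 and 0.21 and did not pass the test (limma adjusted p = 0.131 for Ifnar1 and larger for Ifnar2).

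Genes that limit responses to the cell's own nucleic acids were higher in 8 of 22 cases and lower in 0, with a median of 0.07. Isg15, Nlrc5 and Usp18, all of them interferon-induced, rose by 1.55, 1.54 and 1.46. Dnase1l3, a secreted nuclease at 7.16 ± 3.56 and 18.5 ± 9.18 normalized counts (SD, n = 5 each), passed narrowly (limma adjusted p = 0.0476) and lost the call in 12 of 25 alternatives. Adar, the enzyme that edits double-stranded RNA and shields it from MDA5 and PKR, had a difference of 0.03 (95% interval -0.14 to 0.20), and Trex1 one of 0.05.

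Relatives of Eif2ak2 that respond to other stresses gave no call. Eif2ak1, Eif2ak3 and Eif2ak4 had differences of 0.08, -0.13 and -0.06 on the log2 scale (limma adjusted p = 0.432, 0.211 and 0.695). In the list of eIF2 kinases and their stress response, 1 of 14 genes was higher and 1 lower. The gene called higher was Trib3, a target of the stress response, at 8.56 ± 3.29 and 22.5 ± 10.7 normalized counts (SD, n = 5 each), whose call was lost in 8 of 25 alternatives. The gene called lower was Eif2b1, a subunit of the exchange factor of eIF2 (-0.38, limma adjusted p = 0.00702). Atf4 and Ddit3, transcription factors that act after phosphorylation of eIF2, had differences of -0.05 and 0.16 and did not pass.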

How the data were processed

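RNA of 5 shControl and 5 shOpn3 nuclei was compared, from punches of 1 mm out of sections of 100 µm. Per the submitters' processing notes FastQC, STAR, featureCounts and DESeq2 were used, and versions, genome build, annotation and strand setting are not given in the sources used here. The authors deposited 1 table of signal per gene, namely read counts over a size factor. In each sample the values were whole multiples of what 1 read is worth (tolerance 0.001), so whole reads were recovered for 100% of values. Per the file headers, the authors' comparison holds a log2 fold change with its error, a Wald score, and a p-value with its adjusted p-value.

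A pseudocount of 1 was added before log2, a filter kept genes averaging 10 or more normalized counts, and groups were compared with limma 3.58.1 (R 4.3.3, eBayes with trend, two-sided, Benjamini-Hochberg over 15597 genes, threshold 0.05). Alternatives were edgeR 4.0.16 and DESeq2 1.42.0 on the recovered reads (8 and 9 sensors called, with 3025 and 3705 genes called in all), limma-voom, other scalings, pseudocounts and filters, a replicate block, and leaving out each sample. The members and lists were chosen with earlier results of these data known. Named were the 10 sensors, Opn3, up to 4 called genes per pathway list with the largest difference, and the 3 genes most alike to each sensor, of which 2 are not reported here. Further genes, markers and neighbours were singled out after their values were seen.

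Per the labels' protocols both viruses were given to the same rats. With group means removed, samples with equal numbers had r from 0.12 to 0.44 in the 5 pairs. Between unequal numbers r ran from -0.45 to 0.36, with a median of -0.21, so the 0.12 of pair 4 lay within that range. The numbers were taken to pair the samples, with less ground in these values for pair 4. Low counts limit precision, as for Zbp1 and Tlr9 with 10 and 11 reads at the least.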

Additional observations from a re-analysis of the deposited data

Results flagged for a closer look

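In 74 group values (each sensor, Opn3 and each named pathway gene, per group of 5), 2 samples stood off from the other 4 of their group by over 0.71 of the group's range, where about 3.7 would arise by chance at 1 in 20. One was Tlr9 in shControl replicate 1 (47.9 normalized counts, the nearest other sample at 18.3). The other was Rnaset2, lowest in that same library (1749, the nearest at 2039). Both values come from shControl replicate 1, high for 1 gene and low for the other, and no cause was tested.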

How the results depend on the processing

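Of 259 values that the 10 sensors took in up to 26 alternative fits, 245 stayed on the same side of 0 and of the threshold, 6 lost the call (5 of Ddx58 and 1 of Aim2), 8 gained it (Eif2ak2) and 0 changed direction. The number of sensors called lay between 6 and 9. A filter at a mean of 50 left Tlr9 untested. For all genes, 2940 were called, against 5085 in limma-voom with quality weights, 4726 in limma with a replicate block and 4777 in edgeR with a replicate block. The block changed no call of a sensor other than Eif2ak2. Of 674 values of the 26 named pathway genes, 653 kept direction and call and 21 lost the call. Relative to the microglia markers, differences near 0 changed sign. With 1 sample left out, Ddx58 lay between -0.24 and 0.0186, Ifih1 between -0.17 and 0.0649, Dhx58 between -0.11 and 0.0464 and Aim2 between -0.12 and 0.15, and Aim2 was -0.11 after quantile normalization and -0.0082 with a pseudocount of 5. None of these passed the test, and the cause was not tested. Under the scalings tried, the median difference of all genes lay between -0.03 and 0.05.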

Other observations

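The shOpn3 nuclei with the lowest sensor values, replicates 1 and 2, also had the highest Opn3 of their group, at 290 and 193 normalized counts. In the other 3 replicates Opn3 was at 159, 154 and 145. Replicate 5, with the lowest Opn3 (145), had a mean sensor log2 value of 9.07, below replicates 3 and 4 (9.34 and 9.83). In shControl replicate 5 Opn3 was at 261, below shOpn3 replicate 1. The mean sensor log2 value there was 7.83, the lowest of all samples by a narrow margin, with shControl replicate 4 at 7.84. The order within shOpn3 comes from 5 samples and was noticed after their values were seen, and it was not tested.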
